A study of Homo sapiens with 15 samples.

Results

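The sites described here are called peaks of wild-type MYC at which no WDR5 peak was called. Members are the peaks in the list of FLAG-tagged wild-type MYC (WT-MYC) that share no base pair with any peak of the WDR5 list, whether or not the WDR5-binding mutant (WBM-MYC) has a peak there. They were thus selected on the called positions of WT-MYC and WDR5. They number 431 of 2527 WT-MYC peaks (17.1%), among 20388 peaks in the 3 lists of the series. The end of chromosome 9, where WT-MYC peaks run from position 135989925 to 140635243, holds 44 of them, and 387 lie elsewhere. Most comparisons are given for both sets, and other values cover all 431 unless stated. All coordinates are hg19.

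ChIP-seq was performed in HEK293, a line of human embryonic kidney cells. Pools of cells were transduced with a retrovirus for FLAG-tagged WT-MYC, for FLAG-tagged WBM-MYC (a form deficient in binding WDR5), or with no insert (vector control), and anti-FLAG M2 agarose was used to pull down the tag. WDR5 was precipitated from HEK293 cells that carried no retrovirus, with rabbit IgG as its control. Each of the 5 groups has 3 independent biological replicates. WT-MYC, WBM-MYC and WDR5 have 1 peak list each, so no value has a spread between replicates, read depth is unknown, and every interval and test takes peaks of these lists as its units. They compare the lists, not conditions, and neighbouring peaks are not independent. A site without a WDR5 peak may still carry WDR5 below the unstated calling threshold, and WDR5 was mapped in other cells than tagged MYC. Both MYC lists come from anti-FLAG precipitates, and the study has 1 vector group for both. Whether it entered the peak calls is not stated in the sources used here. Which genes and sequences lie under the peaks was not analysed here.

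MYC is a transcription factor that binds DNA as a dimer with MAX, with a preference for the E-box motif, and is found mostly at promoters of growth, ribosome and metabolism genes. WDR5 is a scaffold of histone methyltransferase complexes of the MLL family, which mark active promoters. MYC touches WDR5 through a conserved motif in its central part, and this contact is thought to help MYC settle on chromatin. The lists hold the positions of each protein, not their contact.

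The sites were split at a chosen limit into a group within 1 kb of a WDR5 peak and a larger group beyond it, mostly more than 10 kb away. The gap was measured from peak edge to peak edge. Its median was 28720 bp, with an interquartile range of 2977 to 120060 bp and extremes of 0 and 3319879 bp. Without the end of chromosome 9 the median was 22766 bp (1123 to 73666.5 bp). A gap of at most 100 bp was found at 27 sites, and one of 100 bp to 1 kb at 65. Only 48 sites lay 1 to 10 kb from WDR5, while 176 lay 10 to 100 kb and 115 more than 100 kb away. Thus 92 of the 431 sites (21.3%) had a WDR5 peak within 1 kb, and for these the label of a site without WDR5 rests on a gap with a median of 225 bp. The other 339 had a median gap of 47278 bp (17225 to 178666 bp). No break marks the limit, as the largest gap within it was 992 bp and the smallest beyond it 1007 bp. With the end of chromosome 9 left out, 23.8% of sites lay within 1 kb, and the 295 beyond had a median gap of 38221 bp. These distances follow in part from the choice of members, and no test was made of them alone.

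**Figure D1:**
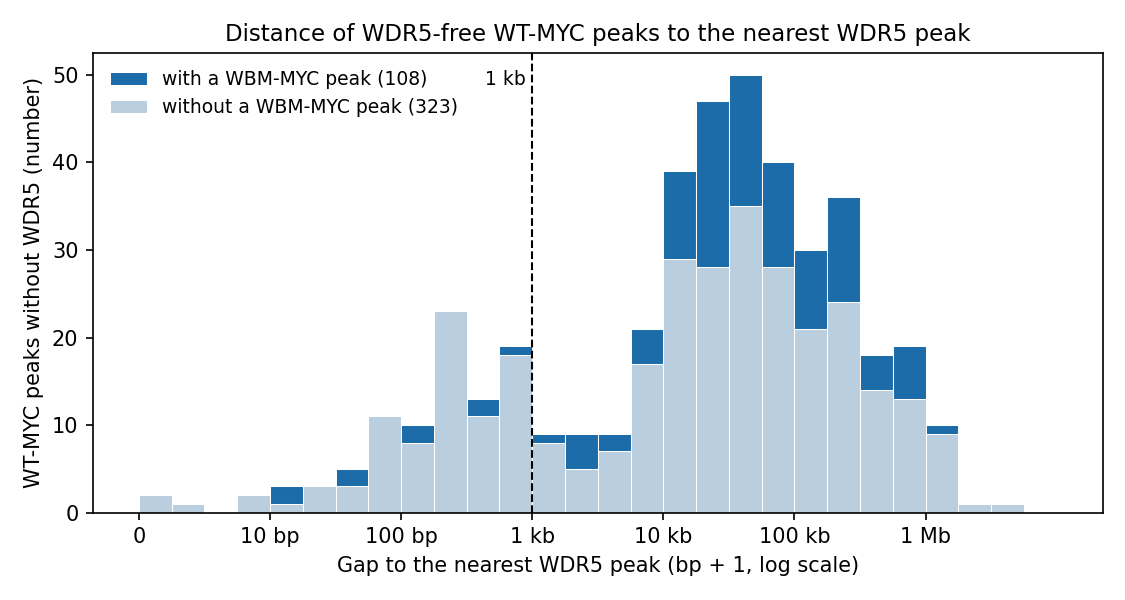
Number of WT-MYC peaks without a WDR5 peak (y axis) by gap to the nearest WDR5 peak in bp (x axis, log scale of gap + 1), with the 108 peaks that overlap a WBM-MYC peak in dark and the 323 that do not in light blue. Few of the 92 sites left of the 1 kb line overlap a WBM-MYC peak, and most of the others lie beyond 10 kb.

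The edge of the selection is a matter of a few base pairs. Just inside it were peaks on chromosome 1 (245026208 to 245026338) and chromosome 16 (28857000 to 28857495), which touch a WDR5 peak with a gap of 0 bp, and one on chromosome 19 (6424099 to 6424594) with a gap of 2 bp. The next were on chromosome 17 (73511877 to 73512372) with a gap of 5 bp and on chromosome 7 (107642738 to 107643233) with a gap of 6 bp. Just outside it were WT-MYC peaks that shared 1 bp with WDR5 on chromosome 22 (28315784 to 28316279), 2 bp on chromosome 13 (104664143 to 104664638) and 13 bp on chromosome 5 (128430675 to 128431170). None of these 8 peaks overlapped WBM-MYC. At the far end, the site on chromosome 13 at 84456024 to 84456519 lay 3319879 bp from the nearest WDR5 peak. It was followed by one on chromosome X at 26801652 to 26802147 (2089421 bp). The next in order were on chromosome 9, at 139137216 to 139137711 (1291698 bp), at 82187700 to 82188195 (1275372 bp) and at 139001462 to 139001957 (1212637 bp). These 5 also lacked WBM-MYC. Of the 12 sites more than 1 Mb from WDR5, 7 lie in the end region of chromosome 9.

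Among sites without WDR5, the mutant MYC was called more often beyond 1 kb of a WDR5 peak than within 1 kb. Over all sites without WDR5, 108 of 431 overlapped a WBM-MYC peak by at least 1 bp (25.1%, exact 95% interval 21.03 to 29.4%), against 419 of 2096 WT-MYC peaks with WDR5 (19.99%, 18.3 to 21.8%). Over the whole WT-MYC list 20.9% overlapped WBM-MYC, and 20.6% did without the end of chromosome 9. By a two-sided Fisher's exact test the difference was 5.07 percentage points (95% interval 0.824 to 9.67, p = 0.0225). It was 3.50 points without the end of chromosome 9 (-0.825 to 8.27, Fisher's exact p = 0.132), where 91 of 387 sites had WBM-MYC. With overlaps of at least 50% of the shorter peak it was 3.59 points (Fisher's exact p = 0.0638). Split by distance, 9 of 92 sites within 1 kb of WDR5 had WBM-MYC (9.78%, 4.57 to 17.8%), and 99 of 339 sites beyond 1 kb did (29.2%, 24.4 to 34.4%).

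Seen from the sites with and without the mutant, 9 of 108 sites with WBM-MYC had a WDR5 peak within 1 kb (8.33%, 3.88 to 15.2%), against 83 of 323 sites without it (25.7%, 21.02 to 30.8%). By the same exact test the difference was -17.4 points (-23.7 to -9.27, p = 6.96e-05, and 0.000174 when adjusted over the 5 comparisons of shares made here). It was -18.2 points without the end of chromosome 9 (-25.2 to -8.94, Fisher's exact p = 0.000224). It did not pass the test when near meant a gap of at most 100 bp (-3.42 points, Fisher's exact p = 0.256). The gap rests on the WDR5 positions that chose the members. The test therefore concerns only the split by WBM-MYC, which that choice did not use.

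Set against WT-MYC peaks with WDR5, the 2 groups of sites without WDR5 lay on opposite sides. Sites beyond 1 kb exceeded those with WDR5 in their share with WBM-MYC by 9.21 points (4.30 to 14.5, two-sided exact test as above, adjusted p = 0.00032), and by 7.79 points without the end of chromosome 9 (2.67 to 13.4, unadjusted Fisher's exact p = 0.00283). Sites within 1 kb were below them by a difference of -10.2 points (-15.1 to -2.26, Fisher's exact test, adjusted p = 0.0187). The comparison of sites within 1 kb was added after the gaps had been seen, and it did not pass the test with overlaps of at least 50% of the shorter peak (-5.28 points, Fisher's exact p = 0.0568), in the first 50% of the list (-10.3 points, p = 0.309), or with near set at 100 bp (-5.18 points, p = 0.633) or 10 kb (-5.70 points, p = 0.123). By gap class the share with WBM-MYC was 14.8% up to 100 bp, 7.69% from 100 bp to 1 kb, 22.9% from 1 to 10 kb, 31.8% from 10 to 100 kb and 27.8% beyond. In the last class it was 22.1% without the end of chromosome 9.

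**Figure D2:**
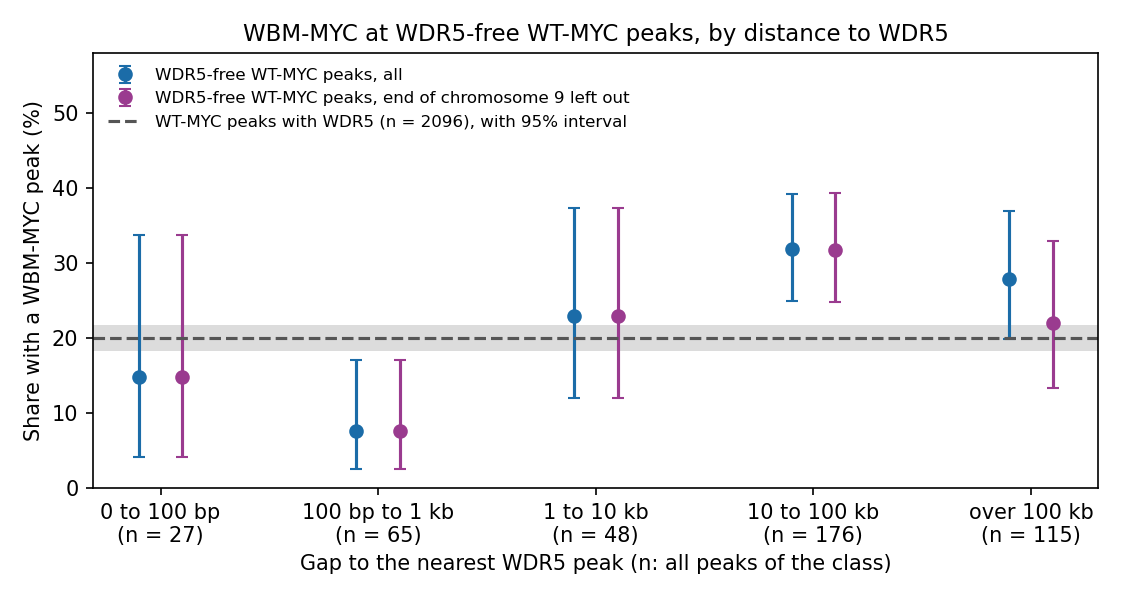
Share of WT-MYC peaks without WDR5 that overlap a WBM-MYC peak (y axis, %, with exact 95% intervals) by gap to the nearest WDR5 peak (x axis), for all sites and without the end of chromosome 9. The dashed line and band give the 19.99% (18.3 to 21.8%) of WT-MYC peaks with WDR5. The class from 100 bp to 1 kb lies below the band and that from 10 to 100 kb above it.

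Place in the WT-MYC list moved with these shares. The list has no score and its order is not explained in the sources used here, but WBM-MYC becomes rarer along it. Sites within 1 kb of WDR5 had a median line of 1844, sites beyond 1 kb one of 1226, and WT-MYC peaks with WDR5 one of 1249.5. In the first quartile of the list (4 equal parts in file order) WBM-MYC was at 4 of 11 sites within 1 kb, at 51 of 92 sites beyond 1 kb (55.4%, 44.7 to 65.8%) and at 44.4% of peaks with WDR5 (40.1 to 48.8%). In the second quartile it was at 2 of 18, at 29 of 82 (35.4%, 25.1 to 46.7%) and at 17.7% of peaks with WDR5 (14.5 to 21.2%). In the third quartile the counts were 3 of 21 and 13 of 78 (16.7%), against 9.02% of peaks with WDR5. In the last quartile none of 42 sites within 1 kb had it, with an exact 95% upper bound of 8.41%, and 6 of 87 beyond 1 kb did (6.90%), against 8.35% of peaks with WDR5. Sites far from WDR5 thus had the higher share in the first 3 quartiles and not in the last.

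Stratified by these quartiles, the odds ratio of carrying WBM-MYC was 1.74 for sites beyond 1 kb against peaks with WDR5 (1.30 to 2.32, Mantel-Haenszel, exact conditional test, two-sided, p = 0.000165). It was 0.374 for sites within 1 kb against those beyond (0.152 to 0.832, exact p = 0.0125). For sites within 1 kb against peaks with WDR5 it was 0.608 and did not pass the test (0.257 to 1.28, exact p = 0.1998). Without the end of chromosome 9 these odds ratios were 1.64, 0.394 and 0.607.

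**Figure D3:**
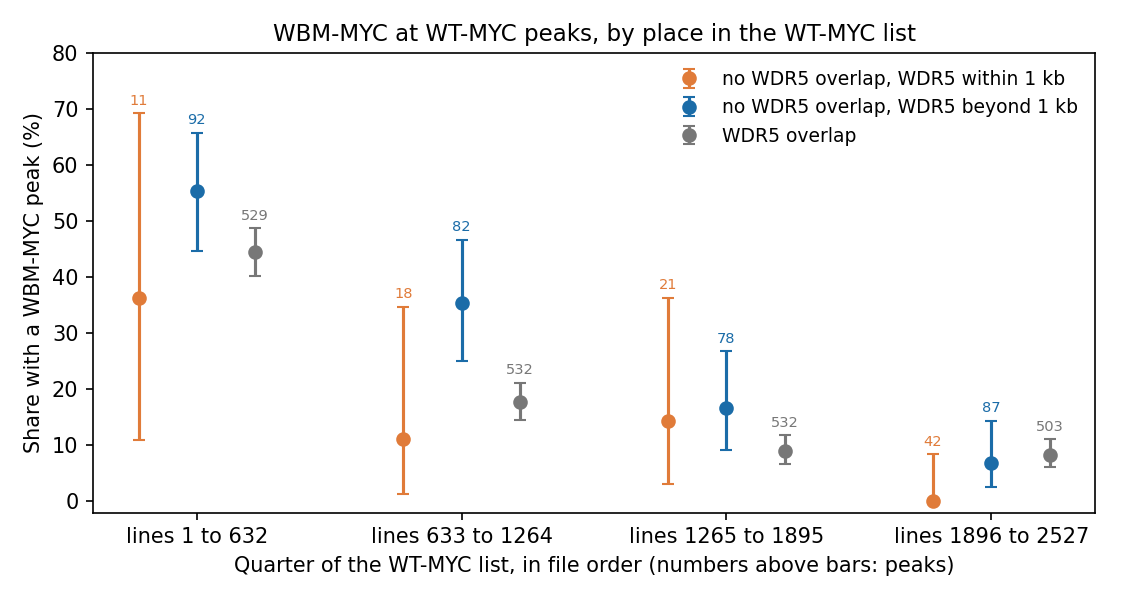
Share of WT-MYC peaks that overlap WBM-MYC (y axis, %, with exact 95% intervals) in each quartile of the WT-MYC list in file order (x axis), for sites without WDR5 overlap that have WDR5 within 1 kb or only beyond it, and for peaks with WDR5 overlap. Numbers above the bars are peaks. All 3 kinds are lower in the last quartile than in the first, and sites beyond 1 kb stand highest in the first 3 quartiles (55.4, 35.4 and 16.7%).

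Where both MYC forms were called, their peaks were centred closer together at sites without WDR5. The distance between the centre of the WT-MYC peak and that of the WBM-MYC peak it shared most with had a median of 13 bp at 108 sites without WDR5 (interquartile range 7 to 36.25 bp) and of 40 bp at 419 peaks with WDR5 (14 to 82 bp). Centres lay within 25 bp of each other at 67 of 108 sites without WDR5 (62.04%, 52.2 to 71.2%), against 152 of 419 with WDR5 (36.3%, 31.7 to 41.1%). A two-sided Fisher's exact test gave a difference of 25.8 points (15.2 to 35.4, p = 1.96e-06, adjusted p = 9.78e-06). It was 29.7 points without the end of chromosome 9 (18.4 to 39.6), where 60 of 91 sites were that close. This comparison was also added after the distances had been seen. Stratified by quartile of the list, the odds ratio was 3.07 (1.92 to 4.95, Mantel-Haenszel, exact p = 7.07e-07).

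The close centring varied along the list. In the first quartile of the list the median distance was 8 bp at 55 sites without WDR5 and 32 bp at 235 peaks with WDR5. In the second quartile 11 of 31 sites without WDR5 had centres within 25 bp (35.5%), near the 33.0% of peaks with WDR5. At the 17 shared sites of the end of chromosome 9 the median was 34 bp. Most peaks of either list have 1 fixed width, and how the caller placed them is not stated in the sources used here.

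**Figure D4:**
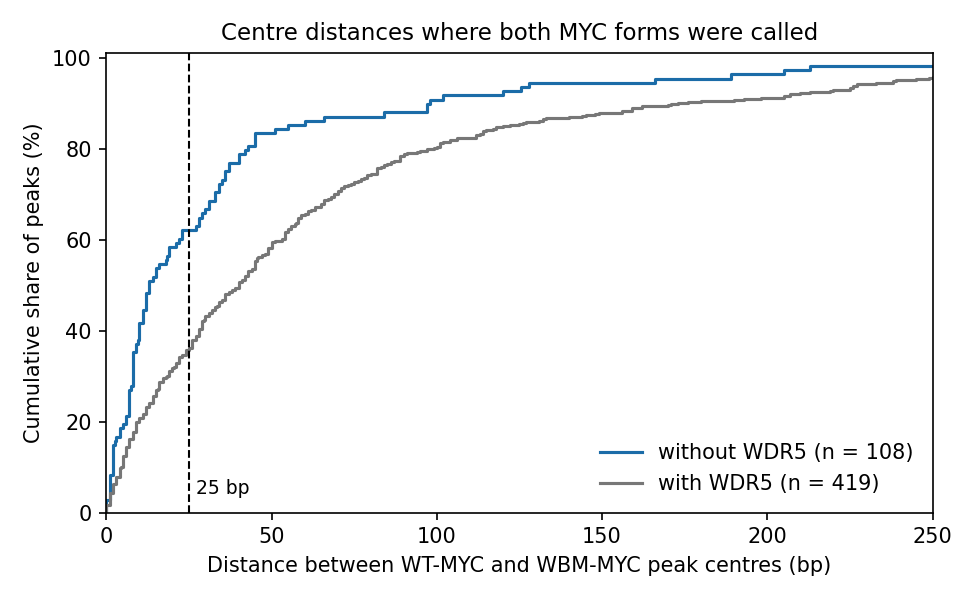
Cumulative share of peaks (y axis, %) by distance between the centres of overlapping WT-MYC and WBM-MYC peaks (x axis, bp, shown up to 250 bp), for 108 WT-MYC peaks without and 419 with WDR5. At the dashed line of 25 bp, 62.04% of the peaks without WDR5 and 36.3% of those with WDR5 are reached.

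Sites without WDR5 were dense at the very start of the WT-MYC list. They made up 14 of the first 25 lines (56.0%), 22 of the first 50 (44.0%) and 35 of the first 100 (35.0%), against 16.3% of the lines after the first 100. In 10 equal parts of the list their share ran between 11.5 and 21.3%. It was 20.2% in part 1, and 20.2, 21.3 and 20.9% in parts 8, 9 and 10, so the density at the start did not extend over part 1. None of those in the first 50 lines had WDR5 within 1 kb, and 14 of these 22 overlapped WBM-MYC. The WBM-MYC list began the same way, with 15 of its first 25 peaks and 27 of its first 50 lacking WDR5. All of these 15, and 24 of the 27, lay on WT-MYC sites without WDR5. These counts describe the order of the lists, which belongs to the measurement that chose the members.

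The first line of both MYC lists is the same site, on chromosome 11. The WT-MYC peak there spans 66189198 to 66189377 (180 bp), shares 173 bp with WBM-MYC and lies 16752 bp from WDR5. The next members, at lines 4, 5 and 6, are on chromosomes 22 (22550322 to 22550587), 2 (89246785 to 89247148) and 14 (107034756 to 107035030), 212922, 181349 and 1039757 bp from WDR5, and all lack WBM-MYC. Of the remaining sites among the first 10, those with WBM-MYC are on chromosome 5 (176264600 to 176265095), chromosome 11 (61334586 to 61335081) and chromosome 19 (4769453 to 4769948 and 50490307 to 50490802). At each of these 4 the WBM-MYC peak lies wholly inside, sharing 456 bp. The 2 without it are on chromosome 9 (132644022 to 132644335) and chromosome 22 (23055334 to 23055605). At these 10 sites the mutant's peak thus either covered nearly the same bases or was not called.

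Narrow peaks were part of this start. Nearly all WT-MYC peaks are 496 bp wide, and 22 members (5.10%) were narrower, from 131 to 364 bp, against 31 of the WT-MYC peaks with WDR5 (1.48%). The narrow members had a median line of 44.5. WBM-MYC overlapped 5 of the 22 narrow members, against 23 of the 31 narrow peaks with WDR5.

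The WBM-MYC peaks on these sites mostly lacked WDR5 as well. They number 104, and 2 of them reach a WDR5 peak that the WT-MYC peak misses. Of all 169 WBM-MYC peaks without WDR5, 102 lay on a WT-MYC site without WDR5 (60.4%), and the other 67 had no WT-MYC peak. Of the 323 members without WBM-MYC, 97 had a WBM-MYC peak within 100 kb (30.03%) and 19 within 10 kb. The median gap to the nearest one was 399895 bp.

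Along the genome, sites without WDR5 occurred on all 23 chromosomes of the list, with the largest shares on chromosomes 9 and X. On chromosome 9, 61 of 119 WT-MYC peaks lacked WDR5 (51.3%, 41.9 to 60.5%), and the chromosome held 14.2% of members, against 2.77% of WT-MYC peaks with WDR5. The end region accounts for 44 of the 61, and its 46 WT-MYC peaks stand beside 3 WDR5 peaks. The rest of chromosome 9 had 17 members among 73 peaks (23.3%, 14.2 to 34.6%). On chromosome X 14 of 38 WT-MYC peaks lacked WDR5 (36.8%, 21.8 to 54.01%), and on chromosome 16 22 of 85 did (25.9%, 17.0 to 36.5%). In the planned Fisher's exact tests 2 of 23 chromosomes (8.7%), 9 and X, were called, and 1 (4.35%), X, was called without the end of chromosome 9. The shares come from the same positions that selected the members, and the end of chromosome 9 was singled out in that selection, so they are given as a description and nothing rests on these calls.

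**Figure D5:**
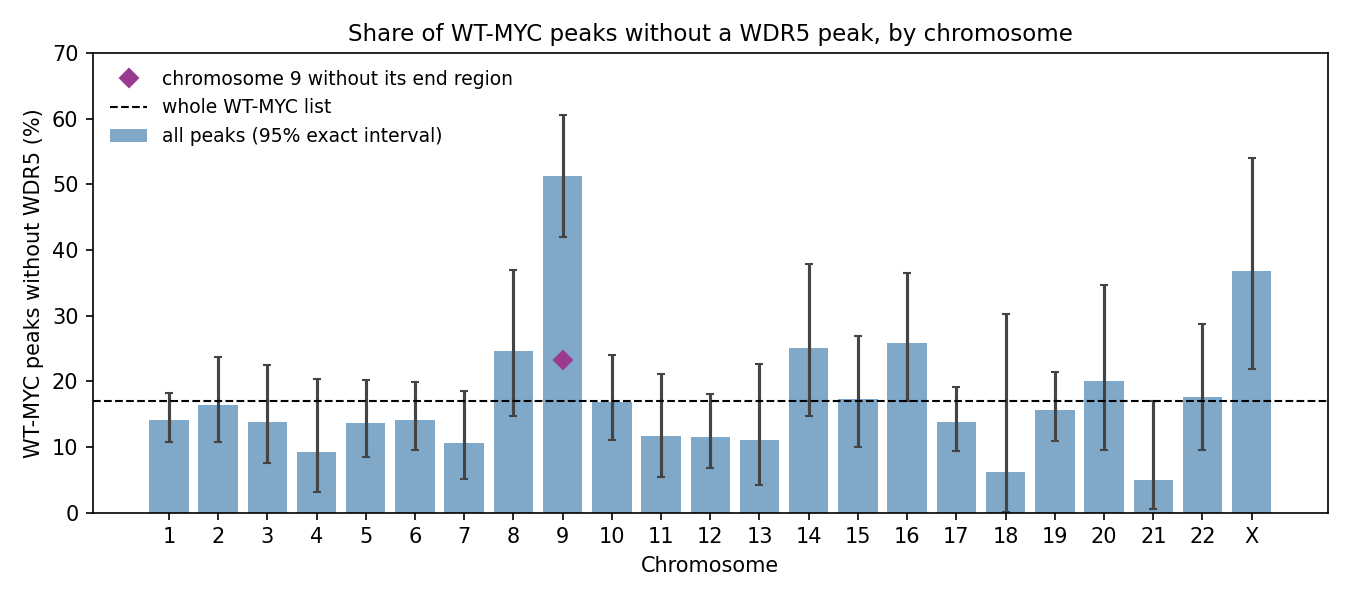
Share of the WT-MYC peaks of each chromosome that lack a WDR5 peak (y axis, %, bars with exact 95% intervals), by chromosome (x axis). The dashed line marks the 17.1% of the whole list. Chromosome 9 reaches 51.3%, or 23.3% without its end region (diamond), and chromosome X 36.8%.

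Sites without WDR5 tended to neighbour each other. Each called peak counts as a site, and 16 of the 431 overlapped or touched another WT-MYC peak. The nearest other WT-MYC peak also lacked WDR5 for 159 of 431 members (36.9%), and for 117 of 387 without the end of chromosome 9 (30.2%), against 258 of 2096 WT-MYC peaks with WDR5 (12.3%), a description without a test. Groups of at least 3 members whose neighbours start within 100 kb of each other numbered 11 and held 59 sites. Of these groups 5, with 36 sites, lie at the end of chromosome 9. No WDR5 peak fell inside 9 of the 11 groups.

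The largest group spans 139622605 to 140196217 on chromosome 9, 573.6 kb with 22 WT-MYC peaks and no WDR5 peak. Its sites lie 233192 to 806545 bp from WDR5, and 9 of the 22 overlap WBM-MYC. Among these are both its first peak, at line 19 of the list, and its last, at line 2421. Some of its peaks overlap each other in pairs, with starts at 139940597 and 139940970, at 140149415 and 140149619, and at 140195521 and 140195722. All but the first pair overlap WBM-MYC, so the counts of peaks exceed those of separate places. Another group of 4 sites on chromosome 9 (136202978 to 136283276) has WBM-MYC at 2, its first and last (starts 136202978, 136214961, 136235467 and 136283080), and 1 more (140353504 to 140500544) has it at 2 of 4. Outside this region the largest groups had 5 sites. On chromosome 16 (29911192 to 30103527) 5 of 7 WT-MYC peaks lacked WDR5 although 7 WDR5 peaks lie in the same span, with gaps of 10119 to 37093 bp, and 2 of the 5, the outermost ones, overlapped WBM-MYC. The 5 start at 29911192, 30006814, 30022541, 30076382 and 30103032. The group on chromosome X (39955529 to 40013390) has 5 WT-MYC peaks in 57.9 kb, none with WDR5 or WBM-MYC, at 126649 to 184015 bp from the nearest WDR5 peak. Its peaks start at 39955529, 39964118, 39965429, 39966449 and 40012895 and stand at lines 1186 to 2186. Without this group 9 of 33 WT-MYC peaks on chromosome X lacked WDR5 (27.3%), and the chromosome was not called. A group of 4 on chromosome 10 (46976321 to 47082377) likewise overlaps no WDR5 or WBM-MYC peak. It lies at least 573522 bp from WDR5 and at lines 1776 to 2341, with starts at 46976321, 47046331, 47050071 and 47081882. The nearest WBM-MYC peak is 655 bp from the first of these sites.

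The smaller groups, of 3 sites each, differed in WBM-MYC. All 3 sites on chromosome 8 (145634497 to 145734279) overlapped it. On chromosome 17 (21219824 to 21274212) and chromosome 16 (30933039 to 30997078) 1 of 3 did in each, as at 139258059 to 139333580 on chromosome 9, and none did at 135989925 to 136025156. Groups of sites without WDR5 therefore include runs that overlap WBM-MYC peaks as well as runs at which no overlapping WBM-MYC peak was called. WBM-MYC overlaps 20.9% of the whole WT-MYC list, and whether runs without it are more frequent than that share gives was not tested.

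Beyond the immediate neighbourhood, the surroundings of these sites were not empty of WDR5. Leaving aside overlapped WDR5 peaks, a median of 2 WDR5 peaks lay within 100 kb of a site without WDR5, or 3 without the end of chromosome 9, against 3 for WT-MYC peaks with WDR5. None lay within that distance of 115 members (26.7%), or of 77 without the end of chromosome 9 (19.9%), against 13.9% of WT-MYC peaks with WDR5. Within 10 kb the shares with none were 67.5% of members (63.8% without the end of chromosome 9) and 67.2% of WT-MYC peaks with WDR5. Members have no overlapped WDR5 peak, so their nearest one was counted, whereas that of peaks with WDR5 was left out. The counts at both distances therefore do not compare like with like. The WDR5 peaks beside the 92 sites within 1 kb had values near those of the whole WDR5 list, a comparison without a test. The nearest had a median width of 453 bp and a median line of 8931 in the WDR5 list, against 419 bp and 8586 over the list, and 13 of the 92 (14.1%) had it overlapped by another WT-MYC peak, against 13.6% of all WDR5 peaks.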

How the data were processed

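The authors deposited 1 peak list each for WT-MYC, WBM-MYC and WDR5, with chromosome, start and end in 3 columns and no score. Bowtie 0.12.7, CASAVA 1.8.2 and the build hg19 are named per the submitters' processing notes. No peak caller, threshold, control or pooling of replicates is named in the sources used here. Depth per library is unknown.

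Members were found by overlap of 0 bp, and bedtools 2.31.1 gave the same 431. Shares have Clopper-Pearson 95% intervals and differences Newcombe intervals (statsmodels 0.14.6). Classes were compared with Fisher's exact test (scipy 1.17.1), with Benjamini-Hochberg adjustment over 23 chromosomes or over 5 comparisons, and strata in R 4.3.3. Intervals cover counting error over peaks only. The code was tested on simulated data.

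Members, groups and tests were chosen with earlier results of these data known. Regions named are the first 10 in file order, the 5 smallest and 5 largest gaps, the 3 nearest on each side of the selection, and groups of at least 3 members, with the peaks of the 5 largest groups, of which the one of 22 is summarised by its range. Planned shares at transcription starts, with an E-box or in repeats were not run, since no annotation or sequence of hg19 was at hand. Alternatives are listed in the closing section.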

Additional observations from a re-analysis of the deposited data

How the results depend on the processing

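The number of WT-MYC peaks without WDR5 ranged from 339 to 562 under 6 alternatives and was 203 in the first 50% of the list. Their larger share with WBM-MYC lost its call with an overlap of at least 50% of the shorter peak (3.59 points) and without the end of chromosome 9 (3.50 points), and kept it under the other 5 alternatives (4.91 to 11.4 points). The lower share within 1 kb of WDR5 among sites with WBM-MYC passed the test under 9 of 10 alternatives (-20.02 to -12.7 points) and not with a gap of 100 bp (-3.42 points). The lower share with WBM-MYC within 1 kb of WDR5, against peaks with WDR5, did not pass with an overlap of at least 50% of the shorter peak (-5.28 points), in the first 50% of the list (-10.3 points), or with a gap of 100 bp (-5.18 points) or 10 kb (-5.70 points). The closer centres passed under all 9 alternatives run (16.2 to 29.7 points). The count of chromosomes called was 1 in place of 2 without the end of chromosome 9, with autosomes only, in the first 50% of the list, without peaks under 496 bp, and without the group on chromosome X. Where a call was lost, the cause was not tested. Other gaps, centre distances, strata and the group on chromosome X were chosen after seeing the data. No replicate could be left out, as WT-MYC, WBM-MYC and WDR5 have 1 list each. No paired analysis was possible because the 3 lists carry no replicates.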
